A study of Gallus gallus with 9 samples.

Results

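Macrophage and leukocyte marker genes were examined in the chick olfactory placode, the ectodermal thickening of the head that forms the olfactory epithelium. The 10 genes chosen were CSF1R, SPI1, PTPRC, LCP1, TYROBP, CD74, CTSS, CYBB, LY86 and CD36. A gene was represented by every probe set that the platform annotation pairs with its symbol alone. This gave 19 probe sets for 9 genes, of 13008 genes with such a probe set on the array, and TYROBP, the signalling adaptor of several myeloid receptors, was not analysed here. RNA came from placodes dissected at Hamburger and Hamilton (HH) stages 16, 18 and 20, with 3 samples labelled biological replicates at each stage and 1 Affymetrix chicken array per sample. The labels give no strain, treatment or genetic change for any stage, and they do not say how many embryos a sample holds. Whether a sample was free of adjoining tissue and blood is not stated either.

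Macrophages are the earliest leukocytes of the vertebrate embryo. They arise from early blood-forming tissue, spread through the body along vessels and through mesenchyme, and take up the dying cells of developing tissues. Their formation depends on the transcription factor PU.1, encoded by SPI1, which switches on myeloid genes, and on the receptor encoded by CSF1R, which binds the growth factors CSF1 and IL34. Mature macrophages also take up material, cut it with lysosomal proteases such as cathepsin S (CTSS) and present it on class II histocompatibility proteins, which the chaperone CD74 guides through the cell. In whole tissue, fewer cells of a type and less RNA per cell cannot be told apart.

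Values are deposited intensities on a linear scale, or levels as quantile-normalized log2(intensity + 16), on which an intensity near 0 lies near 4. A probe set was taken as above background on an array where its intensity exceeded the 99th percentile over the 689 probe sets that the array carries for viruses. This limit was 6.17 to 8.70 on 8 arrays and 13.9 on HH18 replicate 2, so fewer dim probe sets could pass on that array. Summed intensity was lowest for HH18 replicate 1, at 3693919, and highest for HH16 replicate 1, at 8380013. The dissected tissue carried its label's markers: of 13 measured placode genes, 12 were above background on all 9 arrays, among them DLX5, PAX6, EYA2 and EPCAM. Each gene counts by its brightest probe set here, and 42.1% of all chicken probe sets were above background on all 9 arrays. SOX2 was above it on 8. From HH16 to HH20, 4 of the 13 were called higher and 0 lower, beside 7.13% of all tested genes called higher and 14.0% called in either direction. The largest log2 changes were in the transcription factors LHX2 (1.29 ± 0.15, limma adjusted p = 2.2e-05), NEUROG1 (1.10 ± 0.15, adjusted p = 0.00013) and EMX2 (0.69 ± 0.16, adjusted p = 0.0082).

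Most of the macrophage and leukocyte probe sets were near or below background. Only 3 of the 19, or 15.8%, were above it on all 9 arrays, against 42.1% of the 37693 chicken probe sets. These were 1 probe set of CSF1R and 2 of CD74. Another 8 of the 19 (42.1%) were above background on no array, against 29.6% of chicken probe sets. The number above background on an array ranged from 4 to 6 at HH16, from 3 to 7 at HH18 and from 6 to 10 at HH20. The share of all chicken probe sets above background varied too, from 52.5% to 59.6% at HH16, 46.9% to 53.8% at HH18 and 55.7% to 59.1% at HH20.

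**Figure D1:**
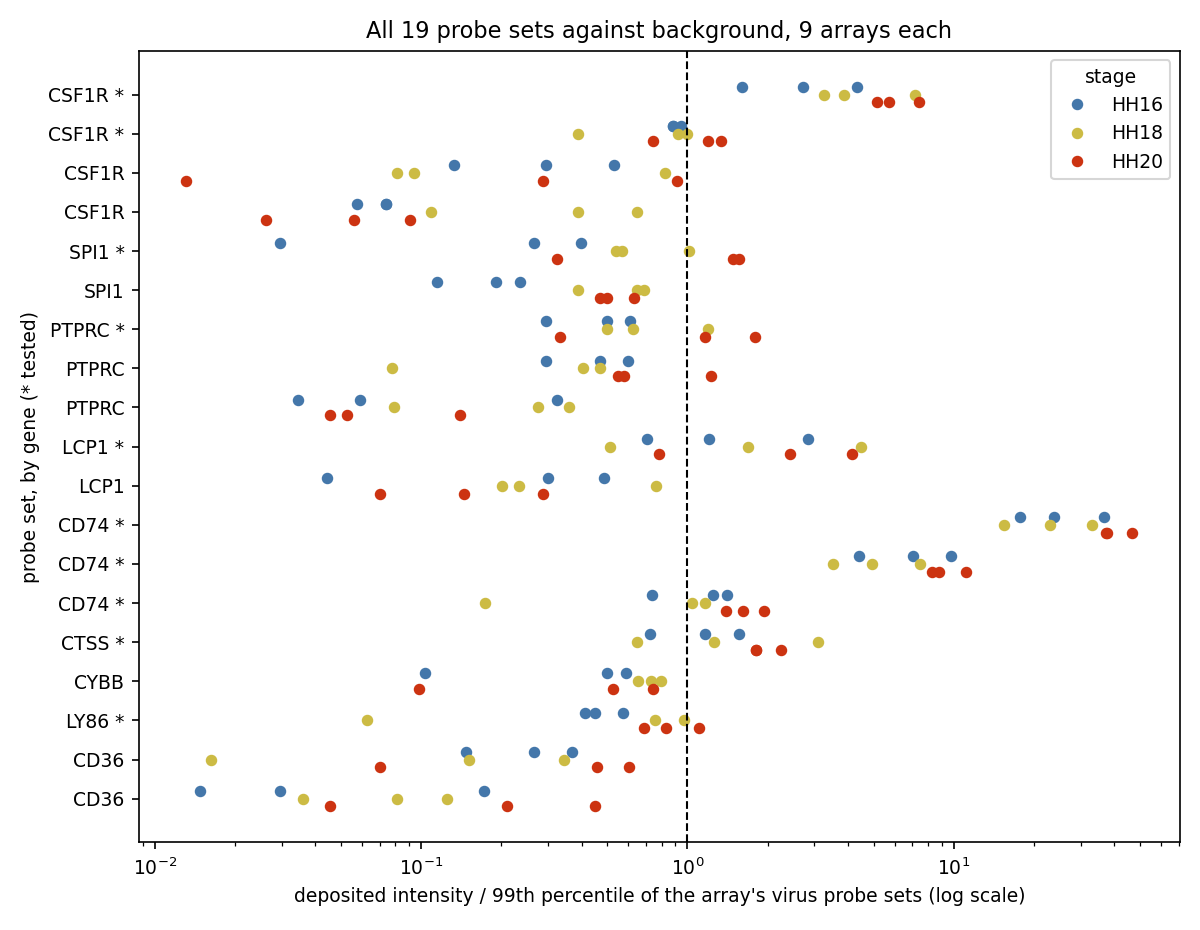
Deposited intensity of each of the 19 probe sets divided by the background limit of its array, on a log axis, with 3 points per stage and the dashed line at equality. A star marks the 10 probe sets that were tested. Only CSF1R and CD74 have probe sets whose 9 points all lie to the right of the line.

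The comparisons between stages asked which of these genes changed as the placode developed. They used limma on all 9 arrays, with p-values adjusted by the Benjamini-Hochberg method over 24489 tested probe sets. A probe set was tested where it exceeded the 40th percentile of the array's chicken probe sets on at least 3 arrays, and the brightest tested probe set represents a gene. Of the 9 genes, 7 were tested. CSF1R and CD74 were higher at HH20 than at HH16, and 5 did not pass. Over all 10630 tested genes, 7.13% were called higher in that comparison and 14.0% in either direction. CSF1R alone was called at HH18 against HH16, where 2.92% of genes were called higher and 5.89% in either direction. From HH18 to HH20 none of the 7 was called by limma, and none had an unadjusted p under 0.05. In that step 0.470% of genes were called, and 9.90% had an unadjusted p under 0.05. A probe set passes the filter more easily if it is bright in some stage, so the counts describe the tested genes and not all 9.

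CSF1R, the receptor that macrophages need to survive and multiply, was low at HH16 and higher at both later stages. Its brightest probe set had log2 levels of 5.20, 5.24 and 4.89 at HH16, 6.18, 6.16 and 5.47 at HH18, and 5.86, 5.83 and 5.76 at HH20. On this normalized scale every array of the later stages lay above every HH16 array, and HH18 replicate 3 lay below the other later arrays. In deposited intensity the stages overlapped, with 37.7 on HH16 replicate 1 and 34.1 on HH20 replicate 3. The level rose 1.77-fold from HH16 to HH18 (log2 change 0.83 ± 0.18, SE, n = 3 per stage, limma adjusted p = 0.014). At these low intensities the size depended on the pseudocount, with a log2 change of 1.25 for a pseudocount of 1 and 0.42 for 64. At HH20 it was 1.63-fold that of HH16 (0.70 ± 0.18, limma adjusted p = 0.016). HH18 and HH20 did not differ beyond their spread, with a log2 change of -0.12 and a 95% interval from -0.50 to 0.25. The later step differed from the earlier by -0.95 ± 0.31 on the log2 scale, which did not pass (limma adjusted p = 0.32). This contrast called 0.0188% of all tested genes and none of the 7.

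These calls of CSF1R depended on single arrays and on the normalization. Without normalization neither was made, with log2 changes of 0.54 at HH18 (adjusted p = 0.55) and 0.68 at HH20 (adjusted p = 0.71). Median centring left the HH18 change at 0.63, which did not pass (adjusted p = 0.075). Leaving out HH16 replicate 3, HH18 replicate 1 or HH18 replicate 2 left the rise to HH18 short of the threshold of 0.05, at an adjusted p of 0.064, 0.055 and 0.07 respectively, with log2 changes between 0.71 and 0.72. The same held without HH16 replicate 1 and HH18 replicate 2 together (0.74, adjusted p = 0.083), respectively the array of highest summed intensity and the array of brightest virus probe sets. The call at HH20 was lost on omitting HH16 replicate 3 (log2 change 0.60, adjusted p = 0.078). It was also lost on omitting HH20 replicate 1 (log2 change 0.67, adjusted p = 0.069) or HH20 replicate 2 (log2 change 0.70, adjusted p = 0.059). Of the other 3 CSF1R probe sets, 1 was tested. It had intensities of 5.3 to 10.2 and was above background on 2 HH20 arrays and on none of HH16 or HH18, so no change is given for it. With both tested probe sets averaged, the dim one included, the gene changed by 0.41 at HH18 and 0.37 at HH20 (adjusted p = 0.068 and 0.057). The remaining 2 were above background on no array, and neither was a further probe set that the annotation pairs with both CSF1R and FLT4, which is no member.

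CD74, the chaperone of class II histocompatibility proteins, was the other gene above background on all 9 arrays. By its brightest probe set CSF1R came within 1.60-fold of the limit, on HH16 replicate 3. CD74 came no nearer than 15.5-fold, on HH18 replicate 2. The log2 levels of its brightest probe set were 7.53, 7.62 and 7.35 at HH16, 8.11, 7.94 and 7.71 at HH18, and 8.11, 8.18 and 8.17 at HH20. On this normalized scale all arrays of the later stages exceeded those of HH16, while HH18 and HH20 overlapped. In deposited intensity the stages overlapped, with 319.2 on HH16 replicate 1 and 268.5 on HH20 replicate 2. At HH20 the level was 1.58-fold that of HH16, a log2 change with a 95% interval from 0.40 to 0.91 (limma adjusted p = 0.0022). The value at HH18, 1.34-fold that of HH16, did not pass (0.42 ± 0.12, adjusted p = 0.059). It was 0.0085 without normalization, 0.091 with median centring, and 0.53 (adjusted p = 0.022) without HH18 replicate 3. The HH20 call held with each array left out in turn and was lost when arrays were not normalized (0.59, adjusted p = 1) or only centred by the median (0.60, adjusted p = 0.24).

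The other CD74 probe sets had smaller differences. The next in brightness had log2 levels of 5.94, 6.13 and 5.73 at HH16 and of 6.04, 6.58 and 6.26 at HH20, so the stages overlapped. Its log2 change of 0.36 had a 95% interval from 0.02 to 0.71 and did not pass (limma adjusted p = 0.18). The dimmest, above background on 7 arrays, changed by 0.18 ± 0.15 (adjusted p = 0.53). All 3 had a positive sign from HH16 to HH20.

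**Figure D2:**
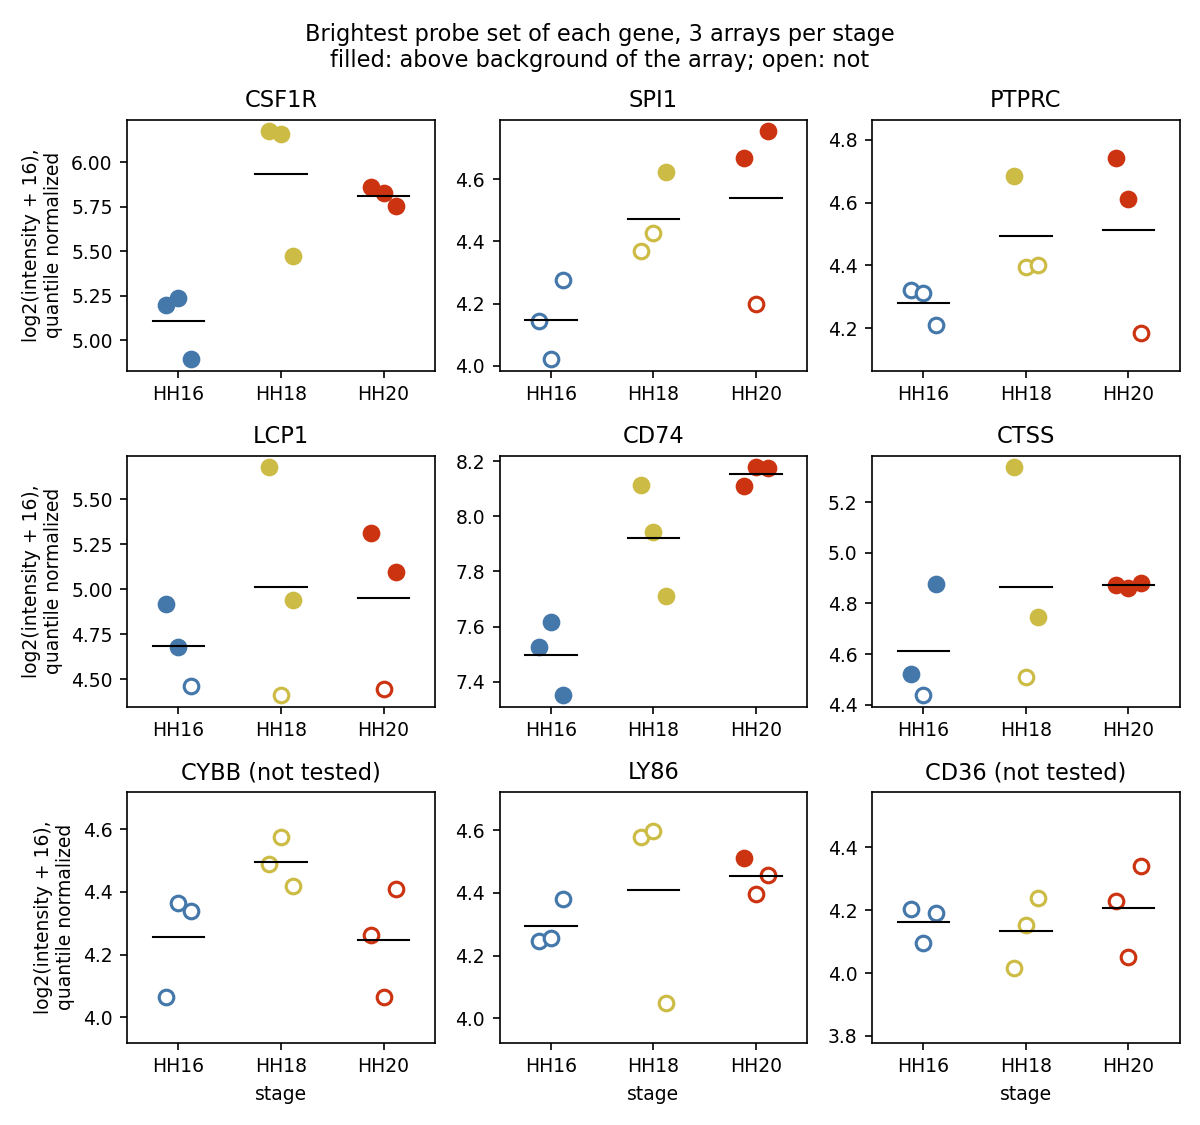
Level of the brightest probe set of each of the 9 genes (quantile-normalized log2(intensity + 16), a separate vertical axis for each gene) on the 3 arrays of each stage, with the stage mean as a bar. Filled points lie above the background limit of their array. For CSF1R and CD74 all HH18 and HH20 points lie above all HH16 points and all are filled, while CYBB and CD36 have no filled point.

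The brightest probe sets of CTSS and LCP1 were above background on most arrays but did not pass any comparison. Cathepsin S had log2 levels of 4.52, 4.44 and 4.88 at HH16, 5.34, 4.51 and 4.75 at HH18, and 4.87, 4.86 and 4.88 at HH20. It was above background on 2, 2 and 3 arrays of the respective stages, and the HH16 array of highest level reached the level of the HH20 arrays. The log2 change from HH16 to HH20 was 0.26, with a 95% interval from -0.13 to 0.65 (limma adjusted p = 0.44). LCP1, which encodes the actin-bundling protein L-plastin of leukocytes, had levels of 4.92, 4.68 and 4.46 at HH16, 5.68, 4.41 and 4.94 at HH18, and 5.31, 4.45 and 5.10 at HH20. Its arrays were spread more widely within HH18 and HH20 than their means lay apart, and 2 of the 3 arrays of each stage were above background. Its change from HH16 to HH20 was 0.27, with an interval from -0.28 to 0.82 (limma adjusted p = 0.59). Both intervals include no change as well as rises of up to 1.57-fold for CTSS and 1.76-fold for LCP1. The other LCP1 probe set, with intensities of 0.3 to 4.7, was above background on no array and was not tested.

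The brightest probe sets of SPI1 and PTPRC, the genes most typical of the myeloid lineage and of leukocytes, were above background on 3 arrays each and on none at HH16. For SPI1 the log2 levels were 4.15, 4.02 and 4.27 at HH16, 4.37, 4.43 and 4.62 at HH18, and 4.67, 4.20 and 4.75 at HH20. Most of these values lie below background, where their order is not interpreted. The adjusted p was 0.28 for HH18 and 0.13 for HH20 against HH16 by limma. Of the 22 alternatives for HH20, SPI1 was tested in 17, and 16 of these did not pass. The other left out HH20 replicate 2, the HH20 array of lowest level (limma adjusted p = 0.046). It is not used as support, since SPI1 passed the filter through HH18 and HH20 arrays alone. The other SPI1 probe set was above background on no array. PTPRC, which encodes CD45, the phosphatase on the surface of all leukocytes, had levels of 4.32, 4.31 and 4.21 at HH16, 4.68, 4.40 and 4.40 at HH18, and 4.74, 4.61 and 4.19 at HH20. Neither comparison with HH16 passed (limma adjusted p = 0.5 and 0.41). A second PTPRC probe set was above background on HH20 replicate 3 alone, at an intensity of 8.1, and the third on no array. No fold change is given for either gene, since HH16 has only an upper limit and the later means did not exceed it.

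The other genes gave still less signal. LY86 encodes MD-1, the partner of the receptor CD180 on antigen-presenting cells. It was above background only on HH20 replicate 1, at an intensity of 8.4, and did not pass (limma adjusted p = 0.59 for HH20 and 0.75 for HH18 against HH16). CYBB encodes the catalytic subunit of the phagocyte NADPH oxidase, and its intensities ran from 0.7 to 10.1 with a median of 4. The highest was that of HH18 replicate 2, which is below the limit of that array. CD36, a scavenger receptor and fatty acid transporter also made by other cell types, had intensities of 0.1 to 4 in 1 probe set and 0.1 to 3.2 in the other. CYBB and CD36 were above background on no array and were not tested.

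**Figure D3:**
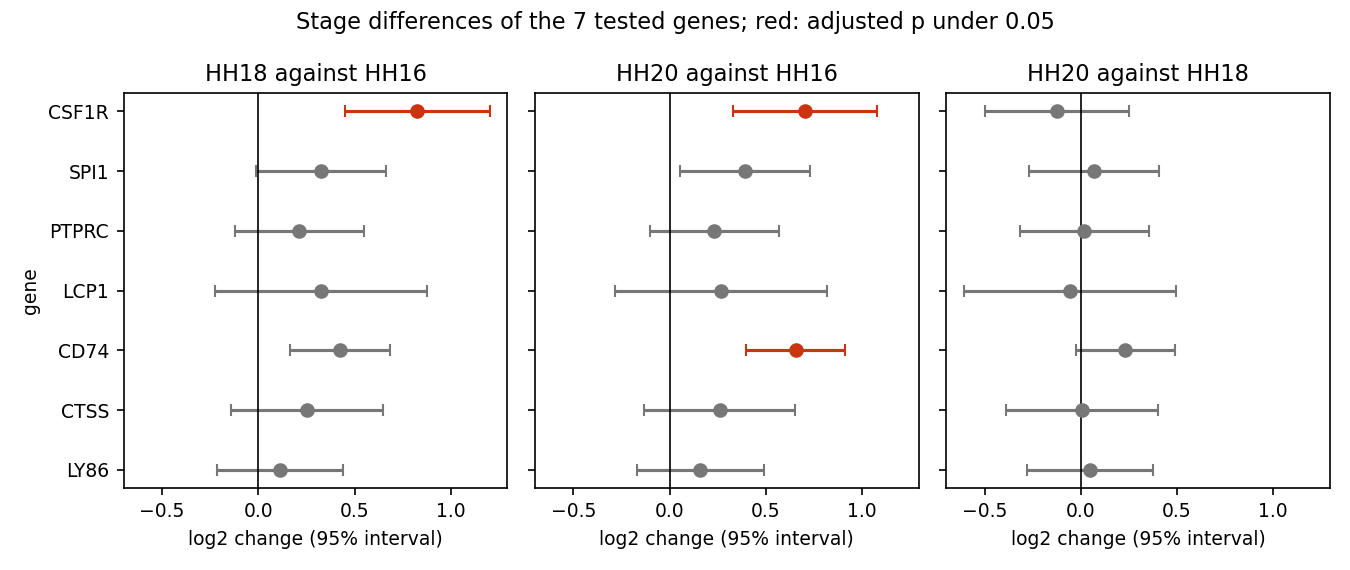
Log2 change of the brightest tested probe set of each of the 7 tested genes with its 95% interval from the limma fit, for the 3 comparisons of stages. Red marks an adjusted p under 0.05, which CSF1R has in the left and middle panels and CD74 in the middle panel. For SPI1, PTPRC and LY86 the points compare levels mostly below background.

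Genes that work with these markers were called from HH16 to HH20 in 1 of 7, 1 of 4, 0 of 6 and 1 of 6 cases in the lists described next, beside 14.0% of all tested genes. Of 7 tested genes among growth factors of macrophages and myeloid transcription factors, RUNX1, a factor needed for definitive blood formation and also used in neurons, rose at HH20 (log2 change 0.77 ± 0.18, limma adjusted p = 0.011) and the others did not pass. Its levels were 4.52, 4.77 and 4.17 at HH16 and 4.95, 5.63 and 5.19 at HH20, with no overlap, and it was above background on 2 of the 3 HH16 arrays. The median of that list was -0.02. In the 4 tested oxidase partners RAC1, a GTPase of nearly all cells, rose (0.26 ± 0.07, adjusted p = 0.022), and CYBA, NCF4 and RAC2 did not pass. None of 6 class II presentation genes passed, and their median change was 0.05. They included BLB1, a class II β chain whose signal may be shared with its near-identical neighbour BLB2, at 4.74 on average over the 9 arrays. Of 6 class I presentation genes ERAP1, a peptidase that trims peptides, rose (0.48 ± 0.13, adjusted p = 0.022), with a list median of 0.08.

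Signalling partners, further leukocyte genes and innate receptors had no called gene from HH16 to HH20, beside 14.0% of all tested genes. At that share lists this short may hold none. Of 6 tested signalling partners of immune receptors, such as LYN and PLCG2, 0 rose and 0 fell, with a median of 0.10. The same counts held for 7 further leukocyte genes (median 0.02) and for 6 innate receptors (median 0.15). Without the filter the medians were 0.14 over 9 signalling partners, -0.10 over 13 further leukocyte genes and 0.04 over 11 innate receptors. Of the 7 further leukocyte genes 4 had a positive sign and 3 a negative one. LAPTM5, a lysosomal protein of blood cells singled out after its values were seen, had levels of 4.38, 4.58 and 4.26 at HH16. At HH18 they were 5.07, 5.54 and 4.10, the last below background and below every HH16 array. At HH20 they were 5.09, 4.92 and 5.06, and the change from HH16 did not pass (0.62 ± 0.25, limma adjusted p = 0.13). ARHGDIB of the same list went the other way, with 9.66, 9.73 and 9.75 at HH16 and 9.42, 9.49 and 9.48 at HH20. Among 13 scavenger, engulfment and lysosome genes only the engulfment receptor MEGF10, which is also made outside macrophages, was called (1.66 ± 0.14, limma adjusted p = 1.5e-06), with 2 of its 3 HH16 arrays above background. The complement gene C1QB, typical of macrophages, was above background on 2 arrays and C1QC on 3. Of 13 further leukocyte genes on the array, 4 were above background on no array, beside 29.6% of all chicken probe sets.

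Of the tested markers of blood vessels and erythrocytes, 2 of 16 endothelial and 1 of 5 globin genes were called from HH16 to HH20, beside 14.0% of all tested genes. From HH16 to HH18 the counts were 1 and 0, beside 5.89% of all tested genes. Summed over 7 tested genes, the normalized intensity of the macrophage and leukocyte markers was 191 to 225 at HH16, 262 to 399 at HH18 and 349 to 366 at HH20, most of it from CD74. SPI1, PTPRC and LY86 are in this sum, although they passed the filter through HH18 and HH20 arrays alone. Over 16 endothelial markers it was 355 to 572 at HH16, 508 to 884 at HH18 and 736 to 809 at HH20, with 64% to 76% of it on any array from EGFL7, CDH5 and FLI1. EGFL7 and CDH5, proteins of endothelium, rose from HH16 to HH20 (1.34 ± 0.21 and 1.14 ± 0.31, limma adjusted p = 0.00042 and 0.024), and 14 endothelial markers did not pass. FLI1, an endothelial and blood transcription factor, was among the latter. All but 1 of the 17 endothelial markers were above background on at least 3 arrays.

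Of 10 erythrocyte markers on the array, 5 were above background on no array and were not tested, beside 29.6% of all chicken probe sets above it on none. Over the 5 tested, all globin genes, the sum was 1462 to 3025 at HH16, 1215 to 3969 at HH18 and 3173 to 3905 at HH20. HBA1 rose (0.90 ± 0.27, limma adjusted p = 0.04), and HBE, HBBR, HBAD and HBZ, whose probe sets may share signal among related globins, did not pass. HH18 replicate 3 had the lowest level of its stage for CSF1R, CD74 and all 5 globin genes, such as HBA1 (6.21 against 7.31 and 7.57). The same held for CDH5 (6.27 against 7.33 and 7.47), FLI1 (7.52 against 8.45 and 8.39) and several other tested endothelial markers, some of them near background. The share of all tested genes lowest on that array was not counted, so no result is drawn from these orders. The order was not shared by the remaining endothelial markers, among them EGFL7, lowest on HH18 replicate 1 (7.22, against 7.26 on replicate 3). At HH16 the order of arrays differed. Replicate 1 had the lowest CDH5 (5.31) and the lowest level of all 5 globin genes, such as HBA1 (6.04 against 6.57 and 6.99). Replicate 3 had the lowest CSF1R and CD74 and the highest level of all 5 globin genes. The part of vessels and blood in the CSF1R and CD74 results was not tested.

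**Figure D4:**
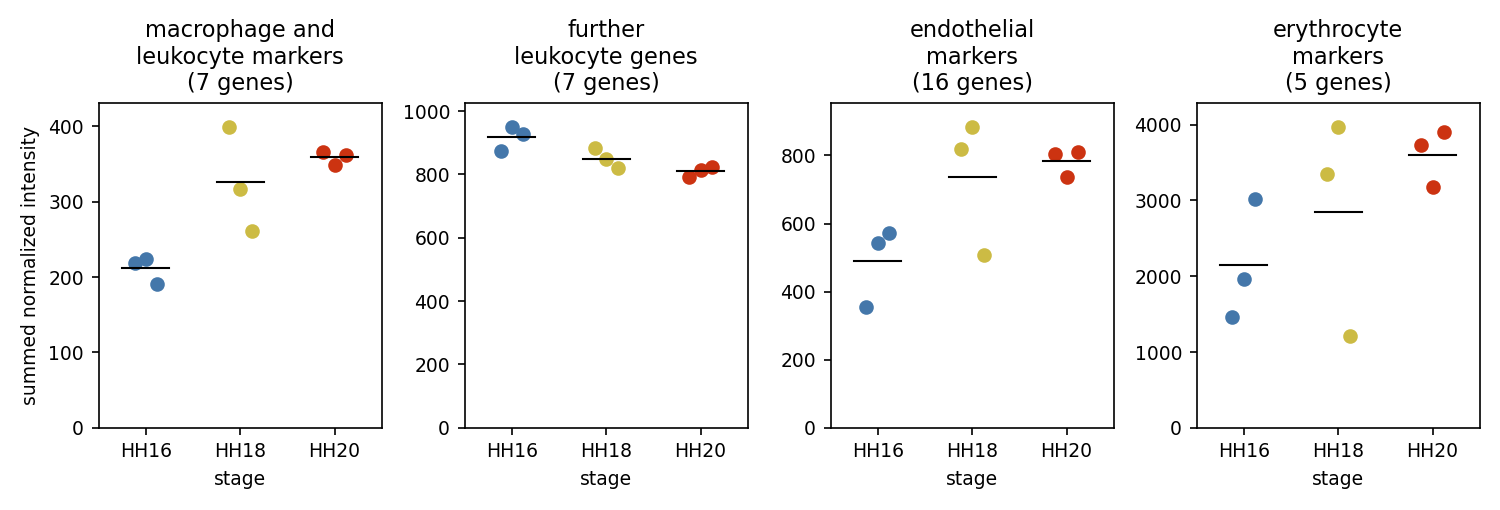
Normalized intensity summed over the tested genes of 4 lists, on 3 arrays per stage, with the stage mean as a bar and axes that start at 0. The sums of macrophage and leukocyte markers and of endothelial markers at HH20 lie above those at HH16 without overlap. The sum of the further leukocyte genes goes the other way without overlap, from 875 to 950 at HH16 to 791 to 824 at HH20. In the further leukocyte genes 84.5% to 90.8% of the sum on an array is ARHGDIB, and the other 6 genes sum to 80.7 to 114 at HH16 and 110 to 124 at HH20. In the macrophage and leukocyte markers 65.3% to 80.3% of the sum on an array is CD74. The other 6 of them sum to 43.8 to 50.6 at HH16 and 75.5 to 106 at HH20. SPI1, PTPRC and LY86 passed the filter through HH18 and HH20 arrays alone, so the filter favours a rise in this sum.

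Of 10 listed granulocyte markers 3 are on the array, and none of these was above background on any array. Of 14 lymphocyte markers 8 were above it on none, and 6 were tested. Each gene counts by its brightest probe set here, and 29.6% of all chicken probe sets were above background on no array. Of the 6 tested, 1 was called from HH16 to HH20 and 5 did not pass, beside 14.0% of all tested genes called. CD247, the zeta chain of the T cell receptor complex, was the brightest and fell from HH16 to HH20 by 0.70 ± 0.13 (limma adjusted p = 0.0025). CD3E, another chain of that complex, did not pass (adjusted p = 0.66).

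The genes whose profile over the 9 arrays lay nearest to that of a marker were found by the root mean square difference of centred log2 levels, among 10623 other genes. For CSF1R they were COL6A3 (0.14), ANTXR1 (0.16) and ATN1 (0.17), where the median gene lay 0.45 away and CSF1R itself varied by 0.42. COL6A3, a chain of collagen VI, changed by 0.75 at HH18 and 0.65 at HH20 from HH16, beside 0.83 and 0.70 for CSF1R. Similar changes follow from the choice by profile on the same arrays. For CD74 they were PRLR (0.07), TNRC18 (0.08) and HS3ST1 (0.09), with a median of 0.34. For PTPRC, whose levels are mostly below background, they were ADAMTS10 (0.05), WDR25 (0.08) and MYNN (0.09). PTPRC itself varied by only 0.19, and the median gene lay 0.26 away.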

How the data were processed

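Total RNA of 9 placode samples, 3 per stage, was extracted with Trizol and biotin-labelled with NuGEN kits, per the labels' protocols. The deposited table holds 1 linear intensity per probe set and array, made with MAS5 per the submitters' processing notes, while its version and its scaling are not given in the sources used here. Detection calls were not used here. Of 38535 probe sets, 37693 chicken ones were transformed to log2(intensity + 16) and quantile normalized, because array means differed. A stage-means model was fitted with limma 3.58.1 (lmFit, eBayes with trend) in R 4.3.3, with 6 residual and 11.1 prior degrees of freedom, and the threshold was an adjusted p of 0.05, two-sided. The fit was tested on simulated data. The number of arrays limits precision (median SE of a stage difference 0.148). Errors are SE of the fit. The p-values reflect only how these samples spread.

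Symbols of the 9 genes matched RefSeq (GRCg7b) through Entrez numbers, and no build is named, so no coordinates are given. Members and lists were chosen with earlier results of these data known. Named were all members, up to 3 called genes of largest change from HH16 to HH20 per list, the 2 of highest level in lists of other cell types, and the 3 nearest profiles for CSF1R, CD74, PTPRC and CD36 (the last untested). LAPTM5, C1QB, C1QC, BLB1, LYN, PLCG2, CYBA, NCF4, RAC2, ARHGDIB, HBAD, HBZ, DLX5, PAX6, EYA2, EPCAM and SOX2 fall outside this rule and were named after their values were seen. A stage without an array above background got a bound: the mean of, per array, the higher of the probe set's level and the lowest level above background. Alternatives covered the pseudocount, normalization, filter, replicate block, array weights, arrays fitted, and probe set rule. The filter on virus probe sets and the joint omission of HH16 replicate 1 and HH18 replicate 2 were chosen after seeing the data.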

Additional observations from a re-analysis of the deposited data

How the results depend on the processing

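The number of called macrophage and leukocyte genes, 2 for HH20 against HH16, was 1 with arrays centred on their medians, 1 with probe sets of a gene averaged and 0 as deposited, and with each array left out it ran from 1 to 2. For HH18 against HH16 the number, 1, was 0 as deposited, 0 with arrays centred on their medians, 0 with probe sets of a gene averaged and 0 without HH16 replicate 1 and HH18 replicate 2 together. It was 2 with the stricter filter (60th percentile) and 2 with array weights, where CD74 was added, and 0 to 2 with each array left out. For HH20 against HH18, and for the later against the earlier step, it was 0 in every setting. CSF1R and CD74 kept a higher value at HH20 than at HH16 in all 22 alternatives, 17 and 20 of them past the threshold, with log2 changes of 0.34 to 1.10 and 0.40 to 0.71. For CSF1R the ends of that range come from pseudocounts of 64 and 1. Signs turned for CSF1R from HH18 to HH20 as deposited (0.14) and with median centring (0.062). For LCP1 from HH16 to HH18 the change with single arrays left out ran from -0.010 to 0.63, the lowest without HH18 replicate 1. As deposited, the median of all tested probe sets shifted by -0.25 at HH18 against HH16 and 0.22 at HH20 against HH18, and with median centring by -0.17 and 0.14. The causes were not tested.

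All called probe sets numbered 2673 for HH20 against HH16, 176 as deposited, 805 with median centring, and 1417 and 1612 without HH20 replicate 1 or 2. For HH18 against HH16 they numbered 1111, against 44 as deposited, 596 with median centring, 641 with no filter, 577 in a fit to the stages compared alone, 399 without HH16 replicate 1 and HH18 replicate 2 together, and a low of 403 with single arrays left out. The later step had 88, against 10 as deposited, 32 with no filter, 142 with array weights and 23 with HH20 replicate 3 left out. The contrast of steps had 8, and 0 to 33 with single arrays left out, 15 with trimmed-mean scaling, 5 with the stricter filter, 3 with array weights, and 0 as deposited, with no filter and without the joint pair. Same-numbered replicates correlated between -0.13 and 0.06 in their deviations from the stage means. These values show no large shared deviation, but they cannot tell whether same-numbered samples were handled together, which the labels do not say. With the replicate block CSF1R (adjusted p = 0.01 and 0.009) and CD74 (adjusted p = 0.0038) kept their calls and 2319 probe sets were called for HH20 against HH16. Signal over background limits most of these genes: only CSF1R and CD74 were above it on all arrays.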

Other observations

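Thrombocytes, the nucleated clotting cells of birds, have markers that did not move one way. Of 6 such markers on the array 3 were tested. Of 3 tested thrombocyte genes, F13A1, the A subunit of clotting factor XIII that macrophages also make, was above background on no HH16 array and on all 3 at HH20. Its HH20 level was at least 1.30-fold that of HH16, a bound that was not itself tested. The limma test compared the measured means, 4.22 at HH16, below background, and 4.94 at HH20 (adjusted p = 0.0049). F13A1 passed the filter through HH18 and HH20 arrays alone, which favours a rise, so this p is not used as support. Over all tested genes 14.0% were called in that comparison. TUBB1, a tubulin of thrombocytes, rose by 0.48 ± 0.14 (limma adjusted p = 0.035), and ITGB3, an integrin chain also made by other cells, fell by 0.71 ± 0.17 (limma adjusted p = 0.011).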
